A study of Mus musculus with 17 samples.

Results

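Aminoacyl-tRNA synthetases were followed in mouse keratinocytes after knockdown of Musashi-2 (Msi2), which binds RNA, mainly in 3' untranslated regions. The 36 genes were chosen by name from the 20572 genes of the count tables. They are 20 that encode cytosolic enzymes or subunits (Aars, Cars, Dars, Eprs, Farsa, Farsb, Gars, Hars, Iars, Kars, Lars, Mars, Nars, Qars, Rars, Sars, Tars, Vars, Wars and Yars) and 16 that encode mitochondrial enzymes, whose symbols end in 2 (Aars2, Cars2, Ears2, Fars2, Hars2, Iars2, Lars2, Mars2, Nars2, Pars2, Rars2, Sars2, Tars2, Vars2, Wars2 and Yars2). All cells were of a spontaneously immortalised C57BL/6 keratinocyte population from newborn skin, grown on mitomycin-treated NIH-3T3 J2 feeder fibroblasts in its first passages and without feeders later. For the RNA and footprint libraries this population was infected with a lentivirus carrying Msi2 shRNA (knockdown) or scrambled shRNA (control). After 2 days infected cells were selected for 2 days with 2 ug/ml of puromycin, in both groups. RNA was sequenced in 3 knockdown and 3 control libraries, and ribosome footprints, the fragments that ribosomes shield from nuclease, in another 3 and 3 libraries from cells given cycloheximide for 1 min. Msi2 binding was mapped by HITS-CLIP, in which ultraviolet light links the protein to RNA before it is recovered with an antibody, in 5 libraries with no control group. The CLIP cells were given 200 mJ/cm2 of ultraviolet light (UVC), and their labels give no shRNA or puromycin. The CLIP libraries differed in RNase, undiluted in replicate 1, diluted 1:20 in replicates 2 and 3, 1:50 in replicate 4 and 1:75 in replicate 5. Replicate 2 is labelled as low and replicate 3 as high molecular weight.

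A synthetase joins an amino acid to the tRNA that reads its codons, so the set supplies every building block used by ribosomes. Cytosolic translation and mitochondrial translation use separate enzymes for most amino acids, all of them made from nuclear genes. In mammalian cells many cytosolic synthetase genes belong to the programme of the transcription factor ATF4, which is made when kinases that sense amino acid shortage or other stress phosphorylate eIF2, and which pairs with C/EBP factors on a composite DNA element.

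That element, TGATGNAA, was searched on both strands of the promoter windows of RefSeq (GRCm38.p6), which run from 250 bases before to 50 bases after a gene's start. The matching windows are shown because they came from the cytosolic class alone. The motif was in 5 of the 13 cytosolic genes with a window (38.5%), in 0 of the 14 mitochondrial genes with a window, and in 233 of 8969 genes tested in RNA that have a window (2.60%). For each gene the 30 bases around the match nearest its start read 5' to 3' on the gene's own strand, with the motif or its complement in capitals.

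Aars (chr8:111033840-111033869, plus strand): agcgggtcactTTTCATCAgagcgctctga
Gars (chr6:55037960-55037989, plus strand): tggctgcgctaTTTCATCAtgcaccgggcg
Iars (chr13:49682126-49682155, plus strand): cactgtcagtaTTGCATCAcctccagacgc
Tars (chr15:11399655-11399684, minus strand): caggagtcccgTTGCATCAgctggttagct
Yars (chr4:129189895-129189924, plus strand): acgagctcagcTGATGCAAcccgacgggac

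The matches shown lay from 30 bases before to 9 bases after the start that the promoter table gives. For Aars and Yars that start lies inside the gene's RefSeq span, which begins at 111027778 for Aars and at 129189734 for Yars. A match is a description of the letters and not evidence of a bound factor, and 7 cytosolic and 2 mitochondrial genes had no window in the table.

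Total gene counts of the RNA libraries were 9221566 to 26785876 in the knockdown and 11291571 to 24931967 in the control, and those of the footprint libraries 512256 to 2069440 in the knockdown and 702602 to 2959625 in the control. Msi2 footprints were 4.53, 0 and 5.12 CPM (counts scaled to the size of each library) in the knockdown libraries, against 17.1, 16.8 and 18.3 CPM in the control libraries (log2 fold change -2.08 ± 0.41 SE, adjusted p = 0.000285), and the count of 0 allows up to 6.02 CPM, as far as counting error goes. Msi2 RNA was 6.02 ± 0.796 CPM in the knockdown and 7.32 ± 1.30 CPM in the control (SD, n = 3 each) and did not pass the test (log2 fold change -0.29, adjusted p = 0.283), although it did with each library's trend with gene span removed (-0.55, adjusted p = 0.0297). The keratinocyte markers Krt5, Krt14, Trp63, Itga6, Itgb4 and Cdh1 together held 11612 ± 805 CPM of RNA in the knockdown and 15441 ± 1882 CPM in the control. They moved both ways: Krt5 (-0.62), Krt14 (-0.39) and Cdh1 (-0.32) were lower, Itgb4 (0.57) and Itga6 (0.55) were higher, and Trp63 had 0.20 (adjusted p = 0.289). Marker lists of other cell types were low and also differed with the groups. The 8 fibroblast markers summed to 9.46 ± 0.691 CPM in the knockdown and 5.98 ± 1.51 CPM in the control, with Pdgfra higher (1.18 ± 0.41, adjusted p = 0.0258), Twist2 at 0.54 (adjusted p = 0.0689), and Col1a2, Col3a1, Dcn, Lum and Pdgfrb without an RNA read in any library. The 5 endothelial and muscle markers summed to 4.13 ± 1.03 CPM in the knockdown and 1.96 ± 0.553 CPM in the control, with Kdr higher (1.29 ± 0.34, adjusted p = 0.00590). The 5 immune markers summed to 10.1 ± 2.82 CPM in the knockdown and 16.9 ± 1.47 CPM in the control, with Cd68 lower (-0.78 ± 0.19, adjusted p = 0.00323), and the 5 melanocyte markers to 2.31 ± 0.727 CPM in the knockdown and 1.68 ± 0.564 CPM in the control (SD, n = 3 each). The part of these shifts in the results on synthetases was not tested. The labels do not state whether the libraries within a group are separate cultures, and the p-values therefore reflect library spread that may be technical.

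RNA of the cytosolic synthetases was lower in the knockdown for nearly the whole set. Of the 20 cytosolic genes, 17 were lower and 0 higher after knockdown (edgeR's quasi-likelihood test, p adjusted over 11117 genes, threshold 0.05), and the exceptions were Kars, Vars and Farsa. Over all genes tested, 21.7% were lower and 22.0% higher. The median log2 fold change (knockdown over control) of the cytosolic genes was -0.66, and that of all genes was 0.0040. In 16 of the 20 every knockdown library was below every control library, which was so for 26.2% of all genes. Summed over the class, cytosolic synthetase RNA was 4935 ± 102 CPM in the knockdown and 7755 ± 406 CPM in the control (SD, n = 3 each), 63.6% of the control level. In bulk cultures, a loss of RNA per cell and a change in which cells the culture holds cannot be told apart.

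Sars, which charges tRNA with serine (chromosome 3, 108424864 to 108445259, GRCm38.p6), fell furthest. Its RNA was 203, 248 and 202 CPM in the knockdown libraries, against 731, 548 and 580 CPM in the control libraries. The groups were far apart, with the highest knockdown library below the lowest control library (35.2% of control, log2 fold change -1.51 ± 0.14, adjusted p = 6.71e-07). Nars, for asparagine, stood at 428, 488 and 406 CPM in the knockdown libraries and at 1120, 772 and 876 CPM in the control libraries (-1.07 ± 0.14, adjusted p = 3.00e-05). Control replicate 1 was the highest library for both Sars and Nars. Yars, for tyrosine, had 80.1, 89.2 and 86.6 CPM in the knockdown libraries, against 187, 163 and 157 CPM in the control libraries (-0.99 ± 0.11, adjusted p = 5.80e-06). Wars, for tryptophan, had 39.0, 42.8 and 35.2 CPM in the knockdown libraries, against 87.8, 67.3 and 73.7 CPM in the control libraries (-0.97 ± 0.13, adjusted p = 2.13e-05). Neither gene's groups overlapped, and Yars was at 50.5% and Wars at 51.1% of control.

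**Figure D1:**
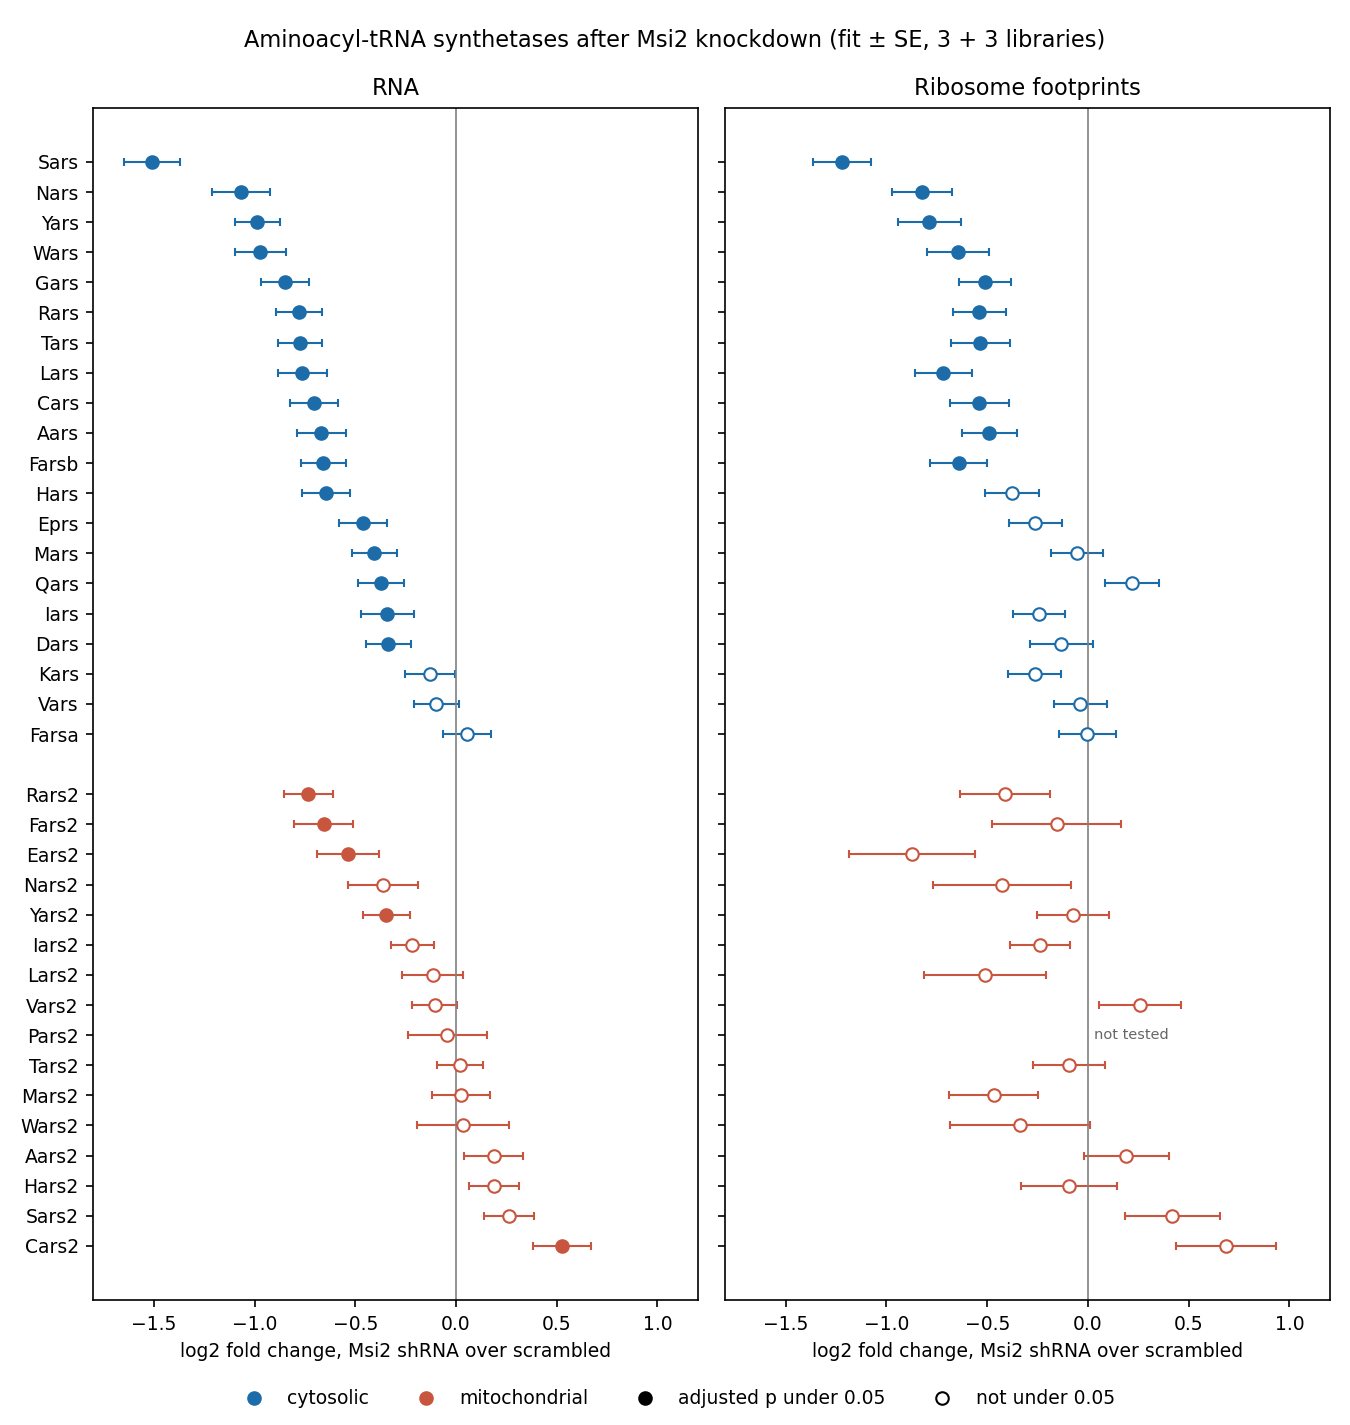
Log2 fold change of each synthetase in RNA (left) and in ribosome footprints (right), Msi2 shRNA over scrambled shRNA, as the fitted value with its standard error from 3 and 3 libraries. Filled points passed an adjusted p under 0.05. The 20 cytosolic genes (top) spread from -1.51 to 0.06 in RNA and the 16 mitochondrial genes (bottom) from -0.73 to 0.53.

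The cytosolic enzymes that work outside the multisynthetase complex, a particle in which several synthetases are held together, had the lower median. Of the 12 free-standing genes 10 were lower, with a median log2 fold change of -0.74. Below Wars they ran through Gars (glycine, -0.85), Tars (threonine, -0.77), Cars (cysteine, -0.71), Aars (alanine, -0.67), Farsb (-0.66) and Hars (histidine, -0.65). Of the 8 genes for enzymes of the complex 7 were lower, with a median of -0.39. They were Rars (arginine, -0.78), Lars (leucine, -0.76), Eprs (glutamate and proline, -0.46), Mars (methionine, -0.40), Qars (glutamine, -0.37), Iars (isoleucine, -0.34) and Dars (aspartate, -0.34), and Kars (lysine) had -0.13 (adjusted p = 0.412). The difference between the sub-groups was not tested. The calls of 3 complex members were narrow. Iars had overlapping groups (adjusted p = 0.0447) and its call held when control replicate 2 was left out and was lost when any other library was, with adjusted p-values of 0.0569 to 0.155. The Dars call was lost when control replicate 1, knockdown replicate 2 or knockdown replicate 3 was left out (adjusted p of 0.0778, 0.106 and 0.0663), and the Qars call when knockdown replicate 1 or 3 was left out (adjusted p of 0.0753 and 0.0560).

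Phenylalanine is charged by an enzyme of 2 kinds of subunit, and the genes of the subunits differed. Farsa, the alpha subunit, had 133, 126 and 158 CPM of RNA in the knockdown libraries, against 135, 147 and 120 CPM in the control libraries, fully overlapping (0.06 ± 0.12, adjusted p = 0.730; the sign turned without control replicate 3 or knockdown replicate 3). Farsb, the beta subunit, had 150, 141 and 148 CPM in the knockdown libraries, against 236, 247 and 209 CPM in the control libraries (-0.66 ± 0.11, adjusted p = 0.000203). The ratio of Farsb to Farsa counts was 1.13, 1.12 and 0.935 in the knockdown libraries, against 1.75, 1.68 and 1.74 in the control libraries. The ratios did not overlap (exact permutation test, two-sided, p = 0.1). No smaller p can be had from 3 libraries against 3, and ratios that do not overlap always give this p. The pair was added after its values were seen, so the p is a description and carries no support.

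RNA of the mitochondrial synthetases moved in both directions and mostly by little. Of the 16 genes, 4 were lower and 1 higher in the knockdown, and 11 did not pass. Their shares stood near the background of 21.7% lower and below that of 22.0% higher. The median log2 fold change was -0.074. In 6 of the 16 the knockdown libraries were all below the control libraries and in 3 all above, against 26.2% and 26.8% of all genes. Summed RNA of the class was 551 ± 23.1 CPM in the knockdown and 603 ± 25.7 CPM in the control (SD, n = 3 each), 91.4% of the control level. The fold changes ranged from -0.73 to 0.53, against -1.51 to 0.06 in the cytosolic class.

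The mitochondrial genes that fell were Rars2, Fars2, Ears2 and Yars2. Rars2, for arginine, had 31.0, 28.6 and 33.2 CPM in the knockdown libraries, against 49.7, 47.8 and 57.3 CPM in the control libraries (-0.73 ± 0.12, adjusted p = 0.000176). Fars2, the single-chain phenylalanine enzyme, had 15.9, 14.7 and 17.1 CPM in the knockdown libraries, against 23.9, 29.0 and 22.4 CPM in the control libraries (-0.66 ± 0.14, adjusted p = 0.00157). Ears2, for glutamate, had 15.6, 17.1 and 13.6 CPM in the knockdown libraries, against 18.9, 22.8 and 25.1 CPM in the control libraries (-0.54 ± 0.15, adjusted p = 0.00927). None of these groups overlapped. The Ears2 call was lost when knockdown replicate 3 was left out (adjusted p = 0.0590). That of Yars2 (tyrosine, -0.35 ± 0.12, adjusted p = 0.0235) was lost when control replicate 2, knockdown replicate 2 or knockdown replicate 3 was left out (adjusted p of 0.0805, 0.0773 and 0.0915).

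Cars2, for cysteine, was the 1 member whose RNA rose (chromosome 8, 11514017 to 11550781). It had 35.8, 30.2 and 38.8 CPM in the knockdown libraries, against 22.6, 28.9 and 21.2 CPM in the control libraries (0.53 ± 0.14, adjusted p = 0.00743). The lowest knockdown library lay only just above the highest control library, and the call was lost when control replicate 1 or knockdown replicate 3 was left out (adjusted p of 0.0568 and 0.0575). Sars2 (0.26 ± 0.13, adjusted p = 0.0998) and Hars2 (0.19 ± 0.12, adjusted p = 0.224) were also above the control in every library without passing the test. Hars and Hars2 lie head to head and overlap by 4 bases, and whether any reads of this pair were assigned to the wrong gene was not tested.

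**Figure D2:**
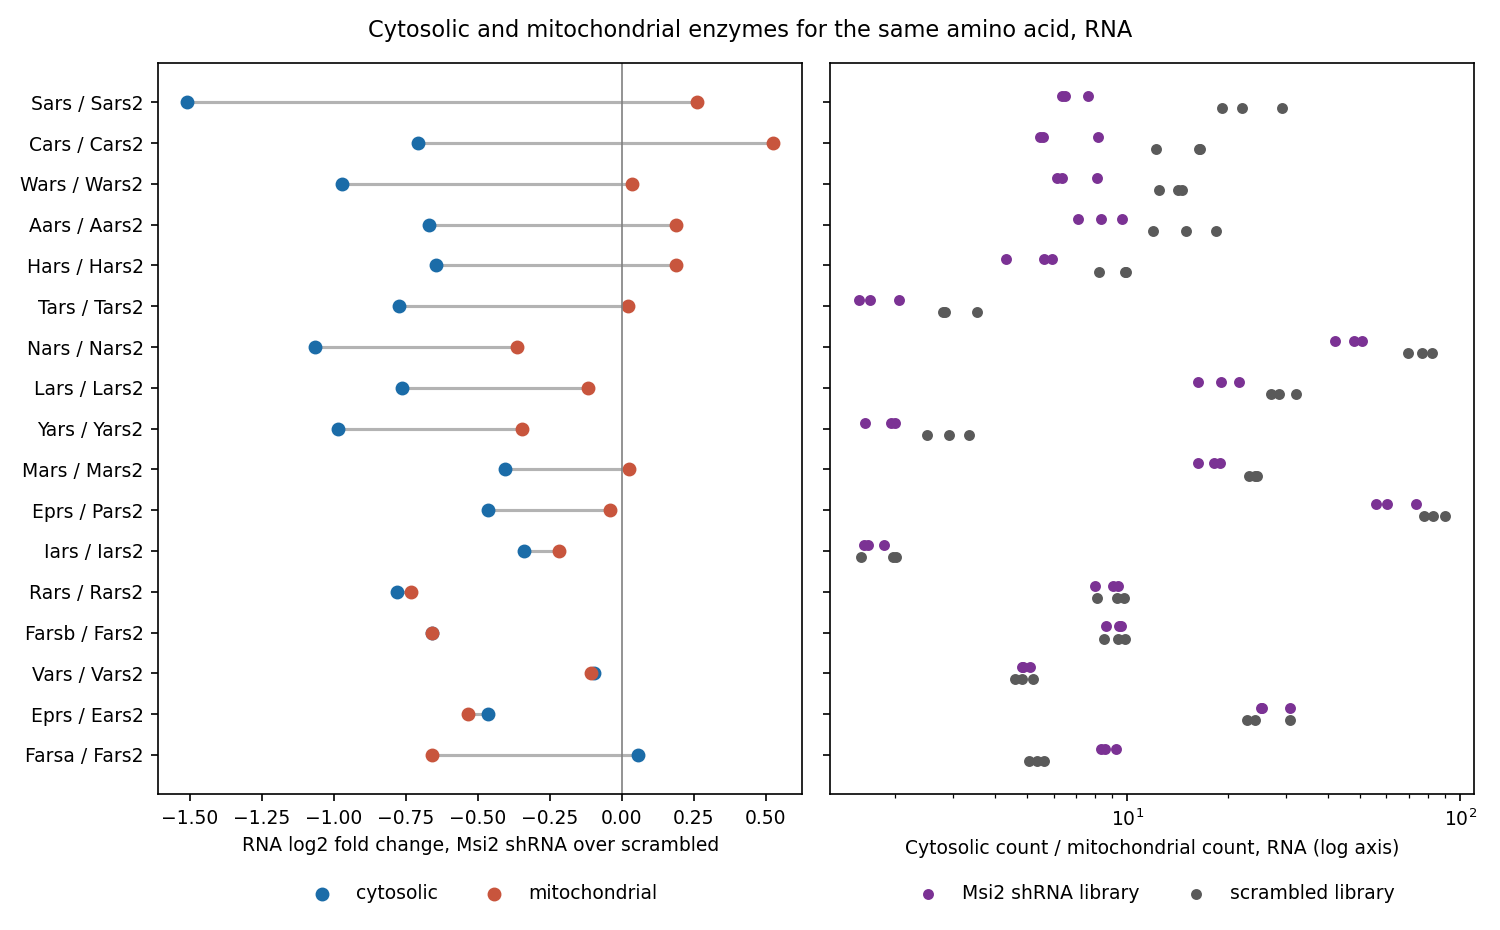
Cytosolic and mitochondrial enzymes for the same amino acid, in RNA. The left panel joins the log2 fold changes of the 2 genes (Msi2 shRNA over scrambled shRNA), and the right panel gives the cytosolic count over the mitochondrial count in each of 3 knockdown and 3 control libraries on a log axis. The cytosolic gene has the lower fold change in 14 of 17 pairs.

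Set beside each other by amino acid, the cytosolic gene had the more negative RNA fold change in 14 of 17 pairs, in which Eprs and Fars2 each stand 2 times and Farsb and Fars2 were level (-0.66 each). The count of the cytosolic gene over that of its mitochondrial partner was lower in every knockdown library than in any control library in 11 pairs, overlapped in 5 and was higher in 1. In footprints the cytosolic gene was the more negative in 13 of 16 pairs, but the ratio was lower in every knockdown library in 3 of the 17 pairs, overlapped in 12, was higher in 1, Eprs against Ears2, and held a count of 0 in 1, Eprs against Pars2. The widest gap in RNA was between Sars (-1.51) and Sars2 (0.26). Sars had 6.48, 7.63 and 6.37 counts per Sars2 count in the knockdown libraries, against 29.1, 22.1 and 19.3 in the control libraries. Cars had 5.58, 8.14 and 5.46 counts per Cars2 count in the knockdown libraries, against 16.5, 12.2 and 16.5 in the control libraries. Neither pair's ratios overlapped, and such a ratio within a library does not depend on how the libraries are scaled. In the arginine pair both genes fell by a like amount, -0.78 for Rars and -0.73 for Rars2. The order was turned for Farsa against Fars2, with 8.36, 8.55 and 9.24 counts per Fars2 count in the knockdown libraries, against 5.62, 5.06 and 5.36 in the control libraries.

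Footprints, which count ribosomes on the coding sequence, gave the same order of the classes. Of the 20 cytosolic genes 11 were lower and 0 higher in the knockdown, against 7.38% and 8.76% of 8969 genes tested, and the median log2 fold change was -0.50 against -0.011 over all genes. The 11 were Sars, Nars, Yars, Lars, Wars, Farsb, Rars, Cars, Tars, Gars and Aars, all of them lower in RNA too. In 13 of the 20 every knockdown library was below every control library and in 1, Qars, above, against 15.4% and 15.9% of all genes. Summed cytosolic footprints were 6520 ± 677 CPM in the knockdown and 9083 ± 712 CPM in the control (SD, n = 3 each), 71.8% of the control level.

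Sars footprints were 300, 433 and 328 CPM in the knockdown libraries, against 797, 718 and 930 CPM in the control libraries (-1.22 ± 0.14, adjusted p = 3.36e-08). Nars footprints were 641, 852 and 651 CPM in the knockdown libraries, against 1550, 982 and 1234 CPM in the control libraries (-0.82 ± 0.15, adjusted p = 0.000160). The groups of both genes stayed apart, and in the knockdown the shallowest library, replicate 2, was the highest. Lars footprints were 364, 493 and 373 CPM in the knockdown libraries, against 768, 572 and 660 CPM in the control libraries (-0.72 ± 0.14, adjusted p = 0.000290). Yars footprints were 122, 168 and 104 CPM in the knockdown libraries, against 244, 194 and 224 CPM in the control libraries (-0.79 ± 0.15, adjusted p = 0.000308). Neither gene's groups overlapped, and Lars is the only enzyme of the multisynthetase complex among these 4. Of the complex 2 of 8 genes were lower in footprints (Lars and Rars; median -0.25), and of the free-standing genes 9 of 12 (median -0.54). Hars missed the threshold at -0.38 ± 0.14 (adjusted p = 0.0501), and Farsa stood at -0.0024 ± 0.14, the beta subunit Farsb at -0.64 ± 0.14 (adjusted p = 0.00111).

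The number of footprint calls rested on single libraries. It was 7 of the 20 cytosolic genes without knockdown replicate 1 and 6 without knockdown replicate 3, while all genes lower came to 350 and 386 in these fits, against 662 with all libraries. The calls that ended in some of these fits were those of Aars, Cars, Gars, Tars and Rars, with adjusted p-values of 0.0841 to 0.139 for Aars, 0.0605 to 0.128 for Cars, 0.0672 and 0.0855 for Gars, 0.0759 to 0.121 for Tars and 0.0532 for Rars; Aars, Cars and Tars also missed it without control replicate 1. With the shallowest library of each group left out together, a check added after the data were seen, 11 cytosolic genes were lower. In that fit 714 of all 9469 genes tested were lower.

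**Figure D3:**
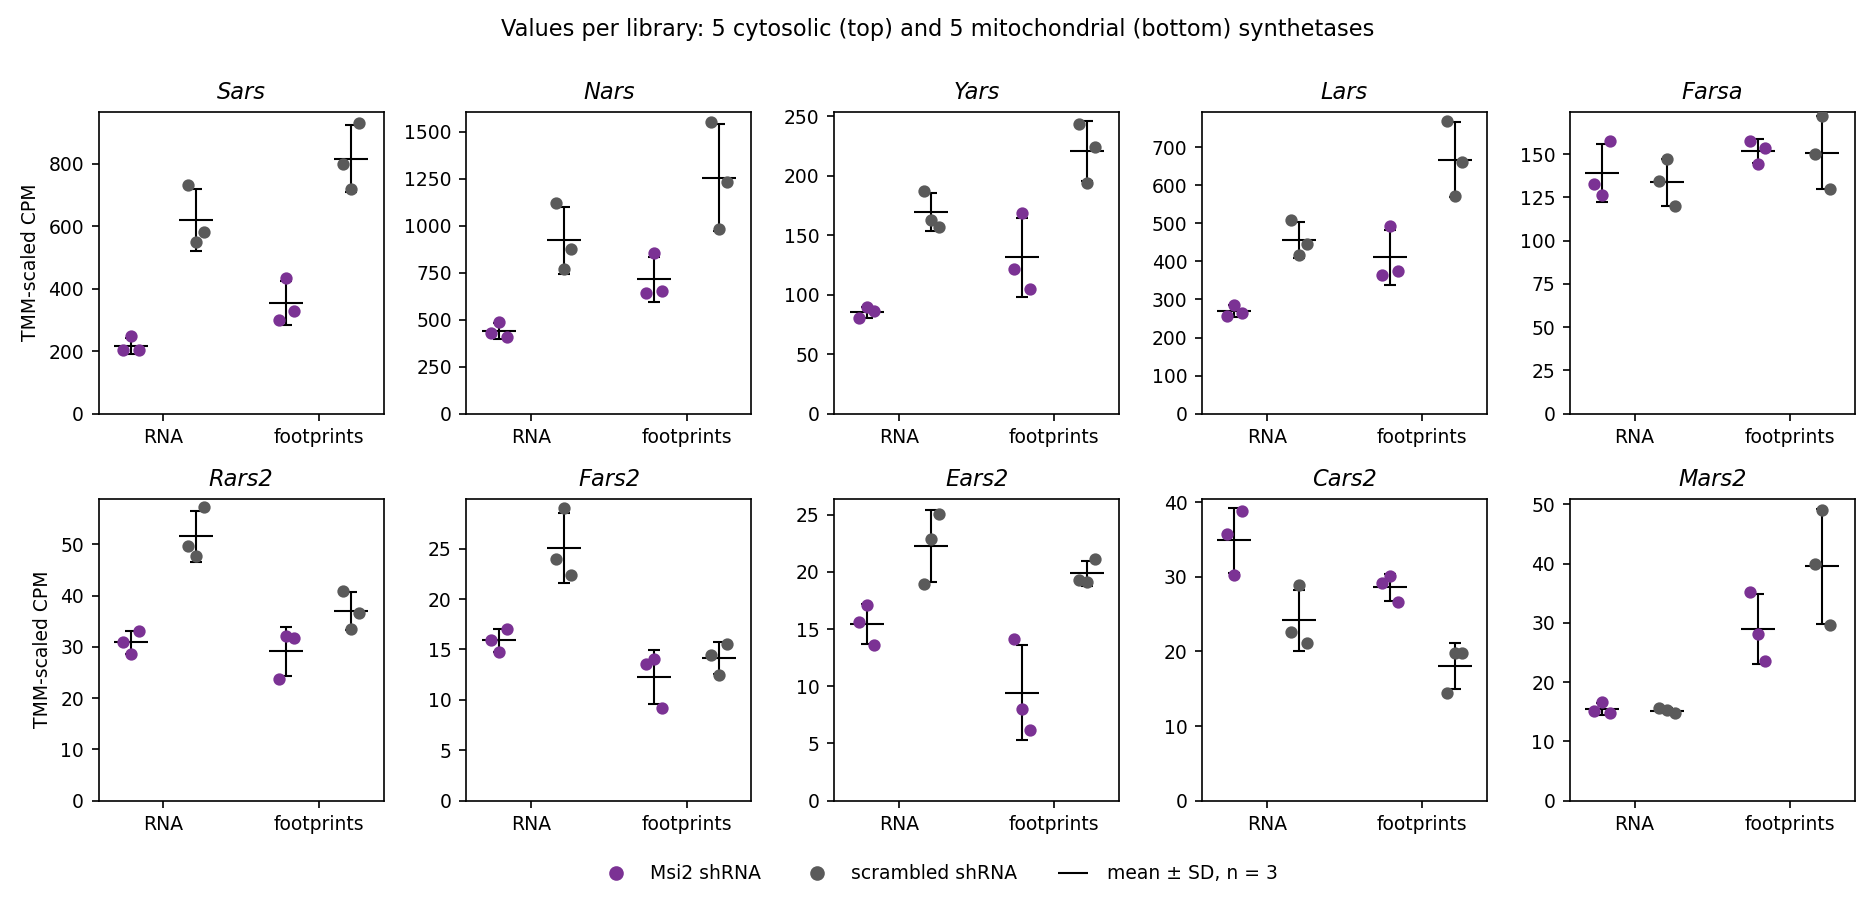
TMM-scaled CPM of RNA and of ribosome footprints in each library for 5 cytosolic (top) and 5 mitochondrial genes (bottom), knockdown in purple and control in grey, with the mean and SD of 3 libraries. The groups stay apart for Sars, Nars, Yars and Lars in both assays, overlap for Farsa in both, and for Cars2 the knockdown libraries lie above the control libraries.

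No mitochondrial gene passed the test in footprints (0 of 15 tested by edgeR, with 2 lower and 1 higher at an unadjusted p under 0.05; DESeq2 also called 0). The median log2 fold change was -0.16, and summed footprints were 538 ± 20.1 CPM in the knockdown and 597 ± 47.6 CPM in the control (SD, n = 3 each), 90.0% of the control level. The class rests on few reads, with a median of 14.5 to 52.5 footprints per gene in a knockdown library and 21 to 75 in a control library, against 169.5 to 607.5 and 256.5 to 1098.5 for the cytosolic genes. Ears2 had 14.1, 8.02 and 6.14 CPM in the knockdown libraries, against 19.3, 19.1 and 21.2 CPM in the control libraries (-0.87 ± 0.31, adjusted p = 0.0506), and it passed without knockdown replicate 1, the highest of its group (-1.51, adjusted p = 0.0230). Cars2 had 29.2, 30.1 and 26.6 CPM in the knockdown libraries, against 14.5, 19.8 and 19.8 CPM in the control libraries (0.68 ± 0.25, adjusted p = 0.0543), and it passed without control replicate 3 (0.71, adjusted p = 0.0401). The groups of both genes did not overlap, in the direction of their RNA. Mars2, for methionine, had 35.2, 28.1 and 23.5 CPM in the knockdown libraries, against 40.0, 49.0 and 29.6 CPM in the control libraries, which overlap (-0.47 ± 0.22, adjusted p = 0.153). Rars2 had 23.7, 32.1 and 31.7 CPM in the knockdown libraries, against 40.8, 33.6 and 36.7 CPM in the control libraries (-0.41 ± 0.22, adjusted p = 0.226), a decrease that passed in RNA and not here. Pars2, for proline, was too low to test, with 9, 2 and 0 footprints in the knockdown libraries and 14, 14 and 5 in the control libraries; the count of 0 allows up to 3.07 CPM, as far as counting error goes.

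**Figure D4:**
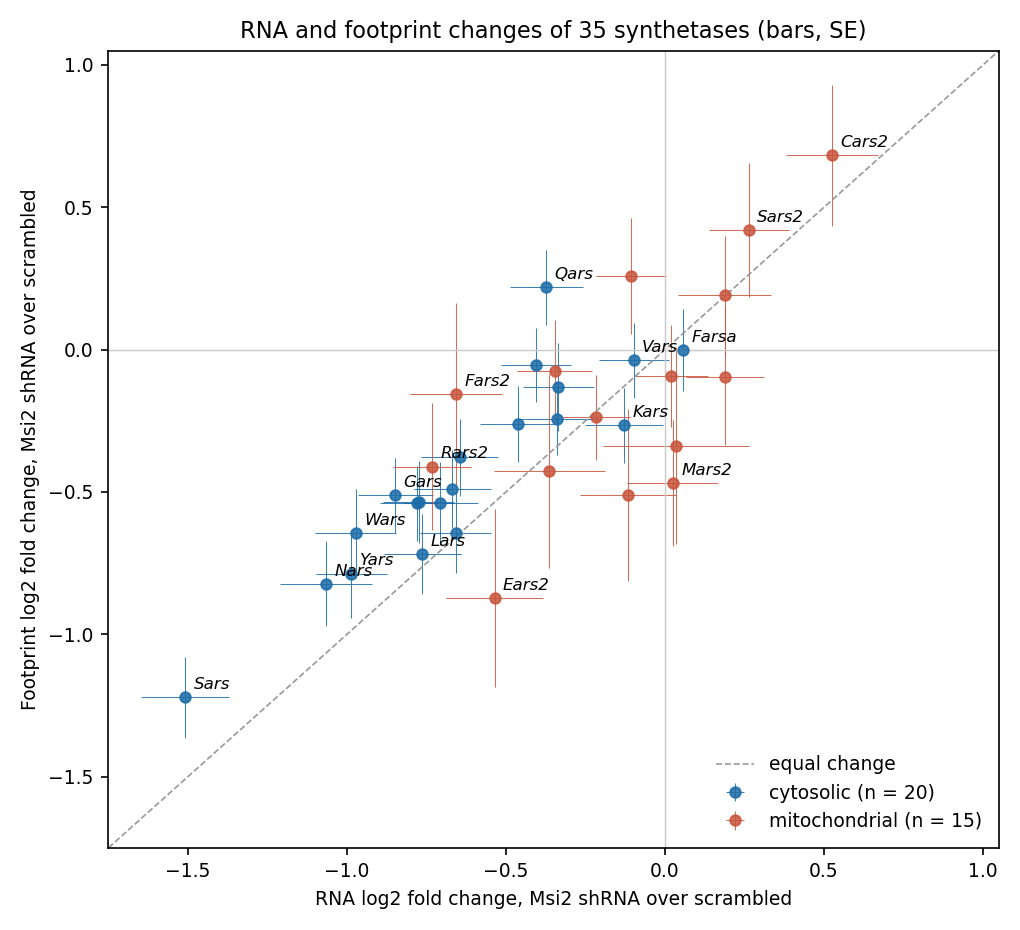
Footprint against RNA log2 fold change (Msi2 shRNA over scrambled shRNA, bars SE) for the 35 synthetases tested in both. Most cytosolic genes sit above the dashed line of equal change, and Qars is negative in RNA and positive in footprints.

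Across the 35 genes tested in both assays, RNA and footprint fold changes had a Pearson r of 0.815 and a Spearman rho of 0.789, against 0.741 and 0.656 across 8918 genes; within the cytosolic class r was 0.901 (n = 20) and within the mitochondrial class 0.669 (n = 15). These describe genes that share libraries and are not independent replicates. The assays came from different libraries.

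Translational efficiency, the footprint change beyond the RNA change, was tested in 1 model of all 12 libraries, with an interaction term. None of the 36 members passed with edgeR, with 2 higher at an unadjusted p under 0.05, and over 10821 genes 0.129% were higher and 0.0739% lower. DESeq2 called 1 member higher, Qars, and 60 of the 10821 genes (0.554%). The interaction estimate was positive for 18 of 20 cytosolic genes, with a median of 0.22 on the log2 scale against 0.017 for all genes, and for 7 of 16 mitochondrial genes, with a median of -0.024. Qars, which charges tRNA with glutamine in the cytosol and has no mitochondrial counterpart in mammals, had the largest positive estimate. Qars RNA was 257, 268 and 269 CPM in the knockdown libraries, against 310, 366 and 351 CPM in the control libraries (-0.37 ± 0.12, adjusted p = 0.0145). Its footprints were 312, 369 and 350 CPM in the knockdown libraries, against 264, 307 and 312 CPM in the control libraries (0.22 ± 0.13, adjusted p = 0.289). The knockdown libraries were all lower in RNA. In footprints the groups all but touched, with the lowest knockdown library at 312.2 CPM (620 counts) and the highest control library at 311.8 CPM (221 counts). The interaction was 0.61 ± 0.17 (unadjusted p = 0.00140, adjusted p = 0.137), and by DESeq2 0.56 ± 0.16 (adjusted p = 0.0364). Mars was the other member past the unadjusted threshold (0.37 ± 0.16, adjusted p = 0.364).

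The ratio of footprint to RNA level was compared between members as a description, both assays being counted over the coding sequence per the authors' deposited notes. Among cytosolic genes it was highest for Wars, at 2.49 in the knockdown and 1.95 in the control, and lowest for Kars, at 0.649 in the knockdown and 0.722 in the control. Among all genes tested in both assays Wars was at percentile 87.5 in the knockdown and 79.0 in the control, and Kars at 17.7 and 22.1. Mars2 had the highest ratio of the mitochondrial genes, 1.87 in the knockdown and 2.60 in the control.

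Fold changes were then grouped by the promoter matches shown above. The 5 cytosolic genes with the motif (Aars, Gars, Iars, Tars and Yars) had RNA fold changes from -0.99 to -0.34, with a median of -0.77, and all 5 were lower in RNA. The 8 cytosolic genes with a window and no motif ranged from -1.51 to 0.06, with a median of -0.39, and 6 were lower. The 7 cytosolic genes without a window had a median of -0.76. The 14 mitochondrial genes with a window, none with the motif, had a median of -0.11. Sars, the gene that fell furthest, had no match in its window. The difference between genes with and without the motif was not tested.

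Peaks of Msi2 in 3' untranslated regions were listed for 3 of the 36 members (8.33%, Wilson 95% interval 2.87 to 21.8%), against 10.3% of the 11117 genes tested in RNA. Height is the authors' number of reads that align to a peak. It equals the sum of the reads of the 5 CLIP libraries for the 3 peaks of members and for 2084 of all 2671 peaks, is below that sum for the others, and is not scaled to the width of the peak. Aars had a peak of height 10, the lowest value in the list (chr8:111055511-111055569, plus strand, mm10), and Nars a peak of height 13 (chr18:64500232-64500368, minus strand), against a median of 16 over 2671 peaks. Lars2, for mitochondrial leucine, had a peak of 410 bases with height 621, rank 4 of the list (chr9:123461823-123462232, plus strand). In the list of all 4051 peaks no other peak lay inside a member.

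The Lars2 peak held 22, 150, 136, 125 and 188 reads in CLIP replicates 1 to 5, or 333, 335, 267, 203 and 350 per 100000 reads in all peaks. It was present at a like level in every library and RNase dilution. The Aars peak held 4, 2, 1, 2 and 1 reads and the Nars peak 0, 7, 1, 3 and 2, which is close to the least a listed peak can hold. Replicate 1, with undiluted RNase, had 6608 reads in all peaks, so its count of 0 for Nars allows up to 45.4 per 100000 (counting error only). Lars2 RNA was 13.4, 13.2 and 16.3 CPM in the knockdown libraries, against 15.9, 14.6 and 16.4 CPM in the control libraries, which overlap (-0.12 ± 0.15, adjusted p = 0.557). Lars2 footprints were 16.1, 10.03 and 15.3 CPM in the knockdown libraries, against 15.4, 20.5 and 35.3 CPM in the control libraries (-0.51 ± 0.30, adjusted p = 0.276), again with overlap. Aars RNA was 249, 300 and 283 CPM in the knockdown libraries, against 482, 419 and 421 CPM in the control libraries (-0.67 ± 0.12, adjusted p = 0.000361). Aars and Nars were lower in RNA, and Lars2 did not pass the test. With no CLIP control library, how far the height of a peak reflects Msi2 binding was not tested. The 15 other cytosolic genes that were lower in RNA have no listed peak, and of all 11117 genes tested in RNA 10.3% have one. A relation between peaks and fold changes was not tested.

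Genes that work beside the synthetases were compared from lists of their own. Of the scaffold proteins of the multisynthetase complex (Aimp1, Aimp2 and Eef1e1), 2 of 3 were lower in RNA, against 21.7% of all genes. Aimp1 had -0.83 ± 0.11 (adjusted p = 1.94e-05) and Aimp2 -0.43 ± 0.12 (adjusted p = 0.00771). In footprints 0 of 3 were lower, against 7.38% of all genes (0 at an unadjusted p under 0.05 and 0 with DESeq2). The interaction estimate of Aimp1 was 0.59 ± 0.17 (adjusted p = 0.141, and adjusted p = 0.0360 with DESeq2). Of 15 genes that mature, proofread or export tRNA or act on the amino acid it carries, 7 were lower and 0 higher in RNA. The shares of all genes were 21.7% and 22.0%. Dtd1, which removes D-amino acids from tRNA, was at -1.02 ± 0.15 and Xpot, the tRNA exporter, at -0.67 ± 0.12. In footprints 2 of these 15 were lower, against 7.38% of all genes, and 1 without control replicate 2, knockdown replicate 1 or knockdown replicate 3. The 2 were Xpot (-0.70 ± 0.14) and Gatc (-0.97 ± 0.30), a subunit of the mitochondrial glutaminyl-tRNA amidotransferase named here after its value was seen.

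Elongation factors bring charged tRNA to the ribosome and move it along. Of 5 cytosolic factors, 1 was lower in RNA, against 21.7% of all genes: Eef2 (-0.50 ± 0.13, adjusted p = 0.00587, and adjusted p = 0.0501 without knockdown replicate 1). Eef1a1 RNA had -0.29 (adjusted p = 0.0910) and was lower with DESeq2 (adjusted p = 0.0116) or without control replicate 2 (adjusted p = 0.0421). In footprints all 5 factors were above the control in every library, against 15.9% of all genes. As higher 2 passed the test, against 8.76% of all genes, and 1 without control replicate 1, knockdown replicate 1 or knockdown replicate 3. The 2 were Eef1b2 (0.87 ± 0.13) and Eef1d (0.41 ± 0.13), both named after their values were seen. Footprints of Eef2 had 0.26 (adjusted p = 0.172) and those of Eef1a1 0.32 (adjusted p = 0.0826). Removing each library's span trend called both, Eef1a1 at 0.39 (adjusted p = 0.0126) and Eef2 at 0.32 (adjusted p = 0.04999). Translational efficiency was higher for Eef1b2 (0.98 ± 0.20, adjusted p = 0.0336), a call lost without RNA control replicate 1, RNA knockdown replicate 1 or 3, footprint control replicate 1 or footprint knockdown replicate 3, where no gene was called higher. Of 8 mitochondrial translation factors 4 were lower in RNA, against 21.7% of all genes, and 2 without knockdown replicate 1 or knockdown replicate 2. Among the 4 were Tsfm (-0.67 ± 0.13) and the recycling factor Mrrf (-0.45 ± 0.13). In footprints 0 were called, with 2 lower at an unadjusted p under 0.05 and 0 with DESeq2.

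Other genes of the ATF4 programme had a larger median decrease than the synthetases, a difference that was not tested. Of 32 tested genes, none of them a synthetase, 27 were lower and 0 higher in RNA, with a median of -1.33. The shares of all genes were 21.7% lower and 22.0% higher. In footprints 26 of 31 were lower, against 7.38% of all genes, with a median of -1.26. Leaving out 1 library gave 20 to 28 genes of this list lower in RNA and 22 to 27 in footprints. All genes lower came to 1840 to 2765 in RNA and 350 to 749 in footprints in these fits. Psph, the last enzyme of serine synthesis, had 29.6, 41.9 and 29.5 CPM of RNA in the knockdown libraries, against 237, 173 and 179 CPM in the control libraries (-2.55 ± 0.16, adjusted p = 1.20e-08). Eif4ebp1, which restrains cap-dependent translation, had 92.9, 115 and 93.1 CPM in the knockdown libraries, against 357, 293 and 296 CPM in the control libraries (-1.65 ± 0.13, adjusted p = 1.18e-07). Both genes' groups lay far apart. Atf4 itself had -0.58 ± 0.12 in RNA (adjusted p = 0.00130) and -1.26 ± 0.16 in footprints (adjusted p = 2.86e-07). Its interaction estimate for translational efficiency, -0.66 ± 0.21, did not pass the test with edgeR (adjusted p = 0.172). Of the 4 eIF2 kinases 1 was higher in RNA, against 22.0% of all genes. This was Eif2ak4, the sensor of uncharged tRNA (0.39 ± 0.11, adjusted p = 0.0115). The call was lost when control replicate 1 or knockdown replicate 3 was left out (adjusted p of 0.0629 and 0.0507). It was also lost with the trend with gene span removed (0.19, adjusted p = 0.160). Eif2ak3, the kinase that senses stress of the endoplasmic reticulum, had 0.29 ± 0.17 (adjusted p = 0.176) and passed without control replicate 3 (0.46, adjusted p = 0.0233). The motif TGATGNAA was in 8 of the 29 ATF4 genes with a window (27.6%), against 2.60% of genes tested in RNA that have a window.

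Some properties of the libraries differed with the groups. Reads that aligned to several places were 19.8 to 24.5% of the RNA total in the knockdown libraries and 13.4 to 17.4% in the control libraries, and their part in these results was not tested. With each library's trend with gene span removed, 17 cytosolic genes were lower in RNA, with a median of -0.73, and 5 mitochondrial genes. In that fit 2521 of all 11079 genes tested were lower.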

How the data were processed

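RNA and footprint libraries of knockdown and control keratinocytes and 5 Msi2 HITS-CLIP libraries were analysed. The deposited tables hold raw counts of reads per gene, aligned to coding sequence per the authors' deposited notes. TopHat, HTSeq and DESeq, with no versions, and the build mm10 are named for them in the submitters' processing notes. RNA came from poly(A)-selected, directional libraries per the labels' protocols; the strand setting of the counting is not given in the sources used here. The deposited peak lists give each region a signal, its height in reads, and counts of reads per library, made with cutadapt and Novoalign per the submitters' processing notes; the peak caller is not given in the sources used here. Lines for reads of no gene (32.3 to 35.2% of an RNA library's total), ambiguous reads and reads with several alignments stayed out of library sizes and tests.

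Counts were fitted by group, RNA and footprints apart, with edgeR 4.0.16 in R 4.3.3. Genes were kept by filterByExpr (count 10, total 15), libraries scaled by TMM, and p-values of the robust quasi-likelihood fit adjusted after Benjamini and Hochberg over all genes tested (threshold 0.05). Translational efficiency was the interaction over all 12 libraries. CPM values are TMM-scaled. Shares have Wilson 95% intervals, and floors of 3 counts and intervals cover counting error only. All 36 members matched the RefSeq table of GRCm38.p6 (Mars as Mars1), which also gave the promoter windows; 1 sequence is not reported here. Python 3.11.15 and scipy 1.17.1 were used for the motif search, intervals and the permutation test.

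Values per library are given for Msi2, the 4 members with the smallest p in each class and assay, members called against their class and members with a peak; the 2 genes of each related list with the smallest p in RNA are named, those of the ATF4 list with values per library. Farsa, Farsb and Qars were added after their values were seen. The members and lists were chosen with earlier results of these data known, so they are described by counts and medians and not tested as sets. Replicate numbers did not pair the libraries. Alternatives were DESeq2 1.42.0, upper-quartile factors, no filter, 10 CPM in 3 libraries, a replicate block, removal of each library's trend with gene span, the cytosolic class without Gars and Kars (whose genes also encode the mitochondrial enzymes), other peak rules and each library left out in turn.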

Additional observations from a re-analysis of the deposited data

Results flagged for a closer look

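The Aars peak stood apart in 1 of the 5 CLIP libraries. Replicate 1, made with undiluted RNase, held 60.5 reads of this peak per 100000 reads in all peaks, against 4.47, 1.97, 3.25 and 1.86 in replicates 2 to 5. The gap to the next library was 0.956 of the whole range, above Dixon's 95% critical value of 0.71 for 5 samples. Chance passes that limit in about 1 of 20 groups of alike samples. These libraries were not alike, differing in RNase dilution and in depth. Replicate 1 had 6608 reads in all peaks and the others 44753 to 61629. A single read therefore weighs most in replicate 1, and the limit cannot tell a stronger peak from low depth. The value rests on 4 reads in the shallowest CLIP library. The Nars and Lars2 peaks did not pass the same limit.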

How the results depend on the processing

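The members gave 33 calls, 21 lower and 1 higher in RNA and 11 lower in footprints, and 22 of the 33 kept their direction and their side of the threshold under every alternative run. The others were lost in some of them: Iars, Dars, Qars, Yars2, Cars2 and Ears2 in RNA, and Aars, Cars, Gars, Rars and Tars in footprints. Calls were added under some of them for Sars2, Iars2 and Nars2 in RNA and for Hars, Ears2 and Cars2 in footprints. The cytosolic median in RNA was -0.73 with the span trend removed. Under upper-quartile factors 1 mitochondrial gene was lower in footprints (Ears2), against 727 of all 8969 genes tested. Under the filter of 10 CPM or the replicate block 1 was higher (Cars2), against 778 of 8264 and 789 of 8969 genes. DESeq2 called 1 cytosolic member higher for translational efficiency. Over all genes, DESeq2 called 481 higher and 373 lower in footprints, and for translational efficiency 60 higher and 38 lower. Translational efficiency gave 46 higher and 78 lower with no filter, 5 and 13 with upper-quartile factors, 1 and 2 with the replicate block, and 3 higher with the filter of 10 CPM. A height of at least 20 left 2.78% of members with a peak, against 5.13% of the 11117 genes tested in RNA. The cause of these differences was not tested.

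Leaving out 1 library gave 14 to 17 cytosolic and 2 to 4 mitochondrial genes lower in RNA, 0 to 2 mitochondrial genes higher, 6 to 12 cytosolic and 0 to 1 mitochondrial genes lower in footprints and 0 to 1 mitochondrial genes higher. The cytosolic median ranged from -0.73 to -0.64 in RNA and from -0.59 to -0.41 in footprints, and the mitochondrial median from -0.13 to -0.053 in RNA and from -0.26 to -0.095 in footprints; for translational efficiency the medians ranged from 0.087 to 0.30 and from -0.18 to 0.038. Over all genes the RNA calls ranged from 1708 to 2721 higher and from 1840 to 2765 lower. The footprint calls of all genes ranged from 463 to 885 higher and from 350 to 749 lower. Those of translational efficiency ranged from 0 to 94 higher and from 0 to 149 lower.

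Signs turned only for member results that had not passed the threshold. In RNA, Farsa ranged from -0.053 to 0.12, Mars2 from -0.031 to 0.061, Pars2 from -0.10 to 0.034, Tars2 from -0.079 to 0.10 and Wars2 from -0.13 to 0.23 as libraries were left out, with 0.11 for Pars2 and -0.17 for Wars2 once the span trend was removed. In footprints, Dars ranged from -0.24 to 0.025, Farsa from -0.079 to 0.11, Vars from -0.10 to 0.062 and Yars2 from -0.17 to 0.082. Farsa footprints were 0.0012 with the filter of 10 CPM, 0.000896 with DESeq2, 0.021 with the replicate block and 0.042 with the span trend removed, and those of Vars 0.0025 with the span trend removed.

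With the replicate block 14 cytosolic genes were lower in RNA, Iars, Dars and Qars missing the threshold, and 12 in footprints. Over all genes 1932 of 11117 were lower in RNA and 705 of 8969 in footprints. Same-numbered libraries had deviations that correlated at 0.0998, -0.35 and -0.30 in RNA and at 0.050, 0.029 and -0.0028 in footprints. Differently numbered libraries ranged from -0.16 to 0.40 in RNA and from -0.043 to 0.0093 in footprints. The highest in RNA was knockdown replicate 2 with control replicate 3. Footprint counts per gene and library were lowest in the mitochondrial class, down to 0 for Pars2.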
